A study of Mus musculus with 64 samples.

Results

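The comparison is ageing within omental adipose tissue of Myc-knockout mice: 5 libraries labelled 20 months against 6 libraries labelled 5 months, 11 of the 64 libraries of the series. They were taken by sample code, K18F26 to K18F30 for the older mice and K5F4284, K5F4285, K5F5116, K5F5118, K5F5218 and K5F5248 for the younger. The knockout mice were labelled as a cross of B6.129 strains, one carrying Gt(ROSA)26Sortm1(cre/ERT2)Tyj and the other Myctm2Fwa, a floxed allele of Myc. In such mice a Cre recombinase that needs tamoxifen is driven from the Gt(ROSA)26Sor locus in all tissues, so the loss of Myc was not limited to fat cells. Wild-type omental libraries, of mice labelled C57/B6, served as a second ageing series, with 6 libraries at 5 months and 5 at 20 months. Knockout and wild-type mice were both labelled as given tamoxifen at 75 mg/kg in 5 daily intraperitoneal doses once weaned and of sufficient weight, so both carried the drug and they differed in strain as well as in Myc. The codes of the older samples hold the number 18 while their labels give 20 months. The labels give 1 sample code per library and no sex. They do not state whether animals came from separate litters or cages, so the p-values measure the spread between these libraries.

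Myc is a transcription factor that binds DNA with its partner Max, mainly at E-box motifs, and is known for driving ribosome production, metabolism and cell growth. Omental fat is a visceral depot made of adipocytes that store triglyceride, with stroma, vessels, immune cells and a covering of mesothelium. In ageing fat the known changes include accumulation of lymphocytes and macrophages, altered matrix, altered adipocyte hormones and signs of cell stress.

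The libraries held 16617615 to 27231104 reads on genes at 5 months and 20213278 to 28500633 at 20 months, and the log2 profiles of library pairs correlated at 0.926 to 0.988 among the young and 0.983 to 0.995 among the old. The adipocyte gene Adipoq, which encodes adiponectin, was present in every library, at 609.8 to 2634 CPM (the deposited read count scaled to library depth) at 5 months and 1005 to 1883 at 20 months. Libraries also stood apart. The young libraries K5F4284, K5F5248 and K5F5218 held transcripts of epididymis and testis, with a summed level over 25 markers of 8969, 5580 and 1145 CPM, against 0.243 to 4.24 in the other young libraries and 0.0265 to 12.3 in the old. Crisp1, a protein secreted in the epididymis, alone reached 5461, 3295 and 822 CPM in these 3 young libraries. The old library with 12.3 CPM was K18F26, which held 12.2 CPM of the marker Svs2 and 0.0499 of Crisp1. The epididymis covariate and the omission above 10 CPM used below counted K18F26 together with the 3 young libraries. K5F5116 and K5F5118 held Xist, the RNA of the inactive X chromosome, at 426 and 276 CPM and no Y-linked transcripts, while the other 9 libraries held Y-linked transcripts, so sex and age were not balanced. For the overall counts and for the gene lists, values without the 3 young epididymis libraries and without the Xist libraries are given beside those over all 11. Neither omission removes both differences. Without the epididymis libraries, 2 of the 3 young libraries left held Xist. Without the Xist libraries, the young group was K5F4285 and the 3 epididymis libraries. Sex or epididymis content thus stayed confounded with age in each.

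**Figure D1:**
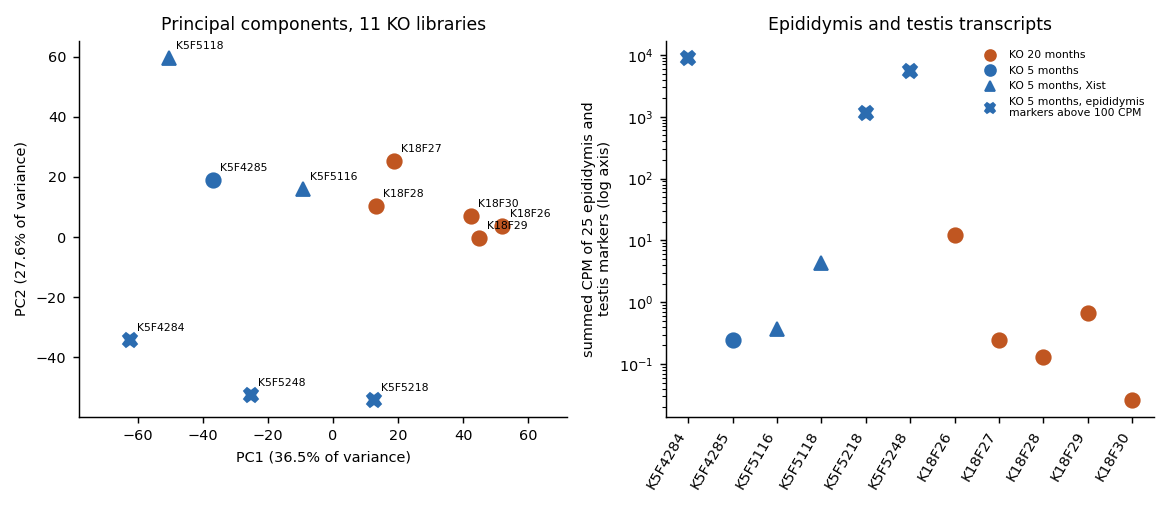
Left, the 11 knockout libraries on the first and the second principal component of log2(CPM + 1), which held 36.5% and 27.6% of the variance. Right, the summed CPM of 25 epididymis and testis markers per library on a log axis. Blue points are 5 months, orange points 20 months, triangles mark libraries with Xist and crosses those above 100 CPM of these markers. On the first component the old libraries lay between 13.1 and 52.0 and the young between -62.4 and 12.7.

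Of 13565 genes tested, 840 differed between the ages at a limma adjusted p under 0.05, which is 6.19%. Of these, 658 were higher at 20 months, 4.85% of those tested, and 182 were lower, 1.34%. A gene was tested when it exceeded 1 CPM in at least 5 of the 11 libraries, and each difference is 20 minus 5 months in log2(CPM + 1), a scale that shrinks the change of weakly expressed genes. Of the 658 higher genes, 16 exceeded 1 CPM in no young library, and of the 182 lower genes 20 did so in no old library. These genes entered the test only through the age at which they were high, so no test is given for those named here (Ms4a1, Actg2, Cnn1, Cxcl5 and some predicted genes). Of all tested genes, 56.1% had a positive difference. All 5 old libraries lay on one side of all 6 young in 453 of the called genes and in 684 of all tested (5.04%). The share of rises among the calls differed with the scaling and with the tool. It was 78.3% as fitted, 66.1% with all columns rescaled to an equal sum and 68.6% with TMM factors. After centring within classes of transcript length it was 63.5%. EdgeR and DESeq2, which differ from limma in the model as well as the scaling, gave 55.6% and 46.1%. These 2 tools lowered the median over all genes by 0.12 and 0.13 from its value of 0.06. Without the 3 epididymis libraries 1177 of 13129 genes were called (8.96%), 730 higher (5.56%) and 447 lower (3.4%), and 472 of the 840 were called again with the same sign. Without the Xist libraries 1362 of 13379 were called (10.2%), 1033 higher (7.72%) and 329 lower (2.46%), and 662 of the 840 were called again.

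The number of calls also turned on single libraries. It was 78 without K18F26, 389 without K18F27, 114 without K18F29, 81 without K18F30, 236 without K5F4284, 376 without K5F4285, 354 without K5F5248 and 1791 without K5F5218. The other 3 omissions gave 851 to 987. In all, 72 of the 840 genes, 56 higher and 16 lower, passed in all 11 of these leave-one-out fits. The old library K18F28 was the one nearest the young group in 376 of the 658 higher genes (57.1%) and in 101 of the 182 lower genes (55.5%). The young library nearest the old group was most often K5F5218, in 250 of the higher (38.0%) and 50 of the lower (27.5%). Beside a gene, "of 11 fits" counts the leave-one-out fits that called it.

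**Figure D2:**
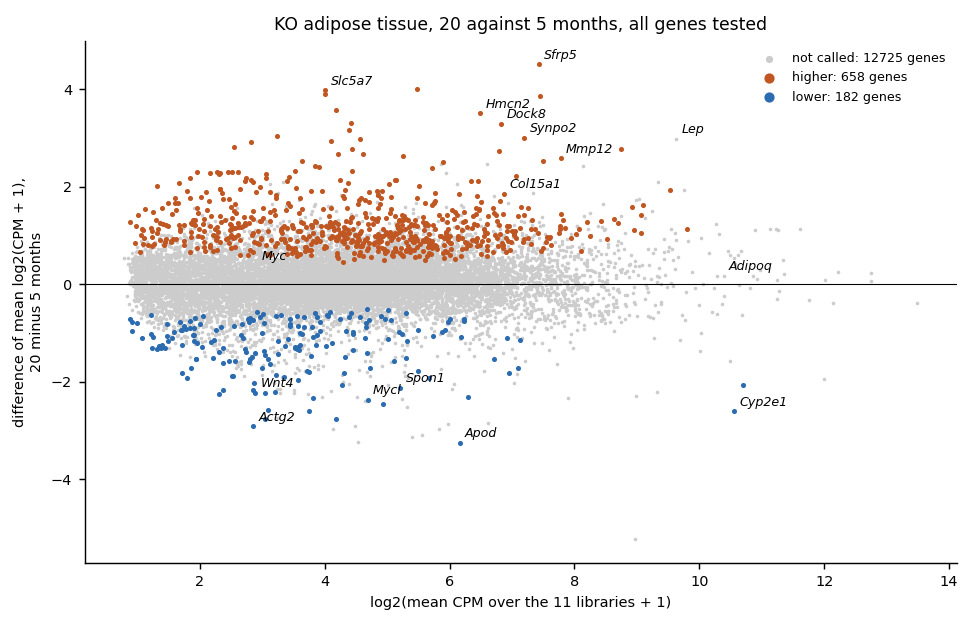
Log2 difference between 20 and 5 months for each of the 13565 tested genes in knockout omental fat, against the log2 of its mean CPM plus 1. Orange marks the 658 genes called higher, blue the 182 called lower, and grey those not called.

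Myc itself was low in both knockout groups. At 5 months the lowest library held 2.87 CPM, the median was 5.03 and the highest 10.5, and the old libraries K18F26 to K18F30 held 8.28, 6.33, 7.34, 5.14 and 9.72. The ranges overlapped, and the difference of 0.39 gave p = 0.221 in a two-sided exact permutation test over libraries. In wild-type fat the mean was 17.7 CPM at 5 months and 11.97 at 20 months. Myc (gene ID 17869) lies at chr15:61985341-61990361 (GRCm38.p6), and the values are gene totals, so they do not separate transcripts of the floxed allele before and after recombination. Pvt1, the long noncoding RNA gene next to Myc, had means of 11.6 ± 4.88 CPM (SD, n = 6) and 6.26 ± 1.92 (n = 5), a difference of -0.74 with a limma adjusted p of 0.12. The difference was -1.25 (limma adjusted p = 0.0185) without the epididymis libraries and -0.54 (limma adjusted p = 0.255) without the Xist libraries. In wild-type fat the Pvt1 means were 2.12 and 2.63 CPM, a difference of 0.24.

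The 10 largest rises among well-expressed named genes brought together a secreted Wnt inhibitor, a choline transporter, a meiosis gene, an immune signalling gene and matrix and iron-handling genes. Sfrp5, an adipocyte protein that binds Wnt ligands, had a lowest young value of 3.499 CPM, a median of 8.45 and a highest value of 103. In the old libraries it stood at 265, 465, 138, 454 and 402 CPM. Every old library lay above every young one, with a difference of 4.51 ± 0.72 (SE; limma adjusted p = 0.00764, 11 of 11 fits). Sfrp5 (gene ID 54612) lies at chr19:42197971-42202252. Slc5a7 (gene ID 63993, chr17:54273590-54299038), the high-affinity choline transporter of cholinergic neurons, had young values of 0.0363, 0.189 and 15.7 CPM (lowest, median, highest). Its old values were 53.9, 21.4, 17.7, 36.9 and 20.0. The old group again lay wholly above the young, whose one high library was K5F5218, and the difference was 3.98 ± 0.65 (limma adjusted p = 0.00921, 11 of 11 fits). Tests on the recovered reads did not call Slc5a7, with adjusted p of 0.124 in edgeR and 0.0714 in DESeq2.

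Dock8 and Sycp3 had the smallest adjusted p of these 10 genes. Dock8 (gene ID 76088, chr19:24999321-25202432), a guanine nucleotide exchange factor needed for lymphocyte migration, had young values of 12.1, 21.8 and 39.2 CPM at the lowest, median and highest library. The old libraries held 204, 199, 199, 243 and 253 CPM, a 9.48-fold higher mean, and the difference was 3.29 ± 0.26 (limma adjusted p = 0.000112). Its spread among the old libraries was small, also in K18F28, which for many other genes sat nearest the young group. Sycp3 (gene ID 20962, chr10:88459587-88473236), a component of the meiotic synaptonemal complex, ran from 1.72 CPM through a median of 3.60 to 5.50 in the young. In the old libraries it was 44.2, 45.3, 22.6, 37.3 and 47.9 CPM, a difference of 3.17 ± 0.27 (limma adjusted p = 0.000143). Both genes were called in 11 of 11 fits, by edgeR and by DESeq2.

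The genes shown were chosen among those without overlap between the ages, so the lack of overlap is not a finding of its own. Of the other 6 large rises, Tfr2, a transferrin receptor known from liver and red cell precursors, had a young median of 0.491 CPM and a highest value of 3.25, against 53.8, 31.8, 4.50, 46.4 and 23.6 in the old libraries (difference 3.896, limma adjusted p = 0.00432). K18F28 was again the lowest old library for Tfr2 and for Lctl, a klotho-related protein gene. Lctl had a young median of 1.94 CPM with a highest value of 25.9, and old values of 101, 104, 29.2, 101 and 93.7 (difference 3.998, limma adjusted p = 0.0121). Hmcn2, which encodes the matrix protein hemicentin, ran from 8.19 to 28.2 CPM in the young and 104 to 282 in the old (difference 3.51, limma adjusted p = 0.000396). Fgf13, an intracellular growth factor homologue that binds sodium channels, and Ubd, a ubiquitin-like modifier induced by inflammatory cytokines, had differences of 3.57 and 3.31 (limma adjusted p = 0.00159 and 0.00385). Synpo2, an actin-binding protein gene of muscle Z-discs, ran from 7.98 to 109.95 CPM in the young and 183 to 315 in the old (difference 3.01, limma adjusted p = 0.0121). Lctl and Synpo2 were called in 10 of 11 fits and the other 4 genes in 11.

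The 10 largest falls included genes of adipocytes, of smooth muscle and of development. Apod (gene ID 11815, chr16:31296192-31314808), the lipid-binding lipocalin apolipoprotein D, had young values of 42.4, 113 and 208 CPM at the lowest, median and highest library. The old libraries held 9.71, 14.9, 11.5, 7.71 and 8.55 CPM. All 5 lay below the lowest young library, the mean was 11.5-fold lower and the difference was -3.25 ± 0.36 (limma adjusted p = 0.000745, 11 of 11 fits). Wnt4 (gene ID 22417, chr4:137277635-137299501), a secreted Wnt ligand, ran from 5.48 CPM through a median of 10.3 to 18.2 in the young. Its old values were 1.25, 1.57, 1.18, 1.498 and 1.25 CPM, a narrow band below all young libraries, with a difference of -2.22 ± 0.24 (limma adjusted p = 0.000745, 11 of 11 fits).

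Cyp2e1 (gene ID 13106, chr7:140763819-140774990), a cytochrome P450 that oxidises ethanol and is also expressed in fat, was the most abundant of these 10 genes. Its young values were 1238, 2383 and 3827 CPM at the lowest, median and highest library, and its old values 254, 696, 933, 342 and 106. The groups did not overlap and the difference was -2.61 ± 0.52 (limma adjusted p = 0.0203, 8 of 11 fits). It was also the single called gene of 5 tested hepatocyte markers, of which 2 had positive differences, with a median of -0.05. The summed level of the hepatocyte list was 1247 to 3851 CPM in young and 110.05 to 1556 in old libraries. Cyp2e1 itself made up most of each young sum, as with 3827 of 3851 CPM in K5F4285, so the sum is not separate evidence. The part of other cells in these bulk values was not tested, and in bulk tissue fewer cells of a type and less RNA per cell cannot be told apart, here and for each list that follows. Cbs (gene ID 12411, chr17:31612623-31637233), the enzyme that joins homocysteine to serine, ran from 13.6 to 48.7 CPM in the young and 2.73 to 10.3 in the old (difference -2.06, limma adjusted p = 0.0125, 10 of 11 fits). Spon1, the matrix protein F-spondin, ran from 23.9 to 92.5 CPM and from 8.63 to 17.5 (difference -2.12, limma adjusted p = 0.00866, 11 of 11 fits).

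A pair of smooth muscle genes were lower. Actg2, the enteric smooth muscle actin, had 2055 reads over the 6 young libraries and 47 over the 5 old ones (11.3 ± 8.12 CPM, SD, n = 6, against 0.255 ± 0.227, n = 5). Cnn1, calponin of smooth muscle, ran from 1.62 to 21.1 CPM in the young and 0.424 to 0.703 in the old. Both were tested only through their young levels. Of 11 tested genes of the smooth muscle and pericyte list, 7 had positive differences and the median was 0.38 (-0.07 with edgeR and with DESeq2), and the summed level of the list was 238 to 1578 CPM in young and 794 to 1376 in old libraries. Acta2, the main smooth muscle actin, had a difference of 1.75 with a limma adjusted p of 0.167. Neither Actg2 nor Cnn1 passed the expression filter without the epididymis libraries. Of the remaining named falls, Emx2, a homeobox gene, had a difference of -2.58 (limma adjusted p = 0.0111, 11 of 11 fits). Aspg, an asparaginase gene, had -2.77 (limma adjusted p = 0.0269, 6 of 11 fits). Both were highest in the epididymis libraries K5F4284 and K5F5248, Emx2 at 18.1 and 26.8 CPM and Aspg at 60.5 and 78.7 CPM. Without the epididymis libraries Emx2 was at -1.94 and Aspg at -1.83 (limma adjusted p = 0.0268 and 0.0191). Of the young libraries then left, K5F4285 held 1.94 CPM of Emx2 and 17.5 of Aspg. The Xist libraries K5F5116 and K5F5118 held 12.7 and 8.61 CPM of Emx2 and 4.54 and 8.53 of Aspg. The old libraries held 0.674 to 1.24 CPM of Emx2 and 1.07 to 2.35 of Aspg. Tmc4, a transmembrane channel-like gene, had -2.21 (limma adjusted p = 0.035, 5 of 11 fits), and -1.05 with an adjusted p of 0.0501 without the epididymis libraries, in which its levels were highest (26.7, 19.8 and 23.9 CPM).

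**Figure D3:**
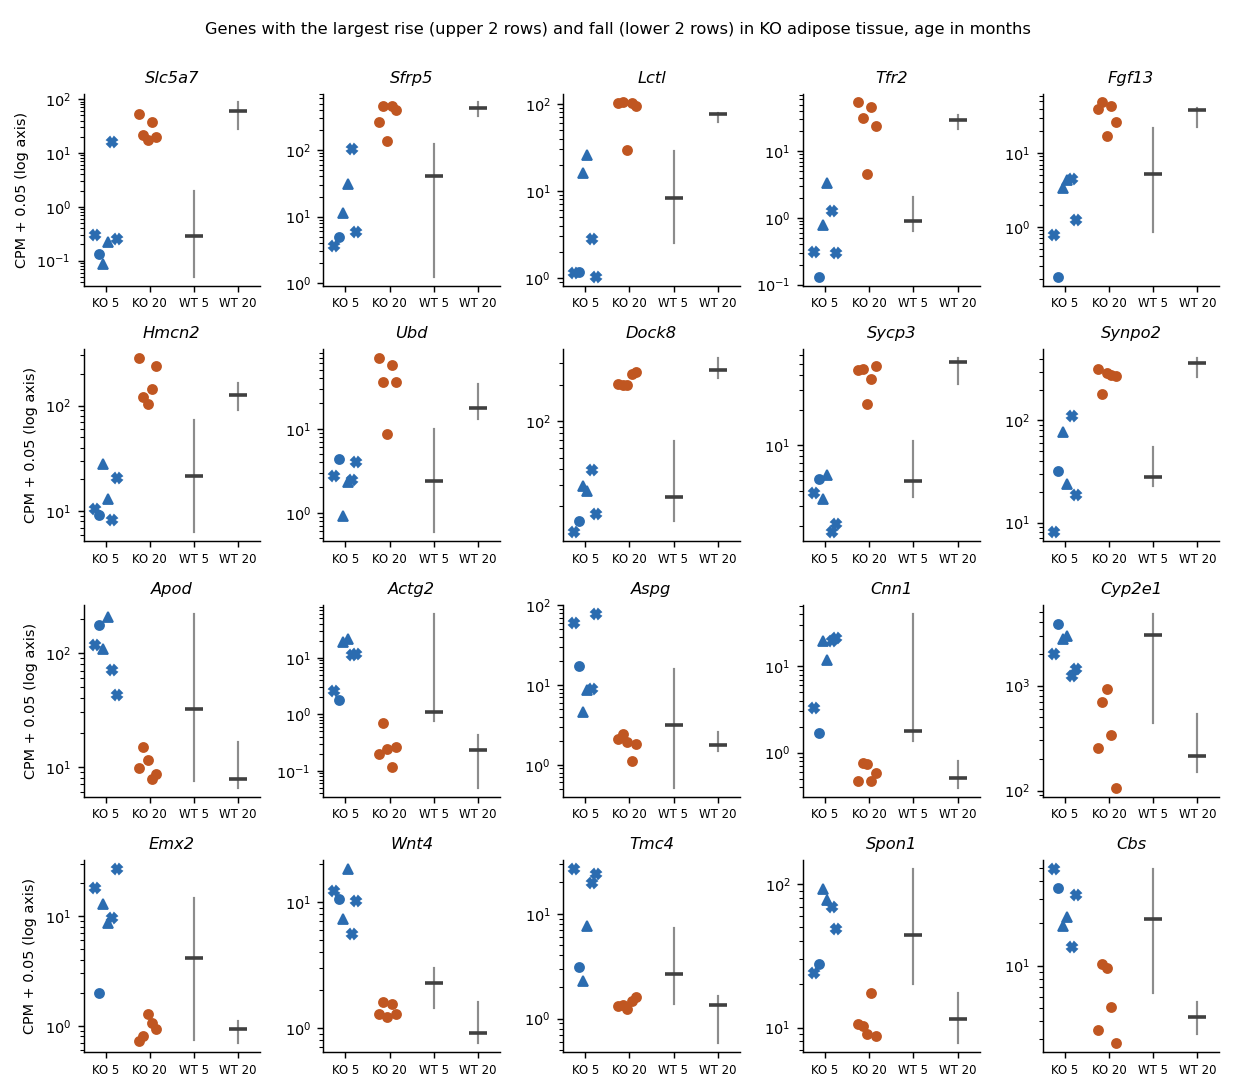
CPM plus 0.05 on a log axis for the 10 largest rises and the 10 largest falls. Points are the knockout libraries at 5 months (6) and 20 months (5), and lines with a dash give the range and median of the wild-type libraries. The genes were chosen for having no overlap between the knockout groups, as for Dock8 (young up to 39.2, old from 199 CPM) and Wnt4 (young from 5.48, old up to 1.57 CPM).

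Because Myc and Max bind the E-box CACGTG, the promoters of the called genes were searched for it. The window ran from 250 bases before to 50 bases after each transcript start in RefSeq (GRCm38.p6), and the motif reads the same on both strands. It was present in 50 of 504 risen genes with a promoter (9.92%), 17 of 143 fallen genes (11.9%), 1179 of 10128 tested genes that were not called (11.6%) and 2187 of all 27025 genes (8.09%). Of the 20 genes named above, 18 had a promoter in the table and 2, Sycp3 and Cbs, held the motif, Sycp3 with 2 copies. These are printed with the promoters of Sfrp5 and Slc5a7, the genes of the largest and one of the next largest rises, which hold no copy; capitals mark the motif, and each sequence is given 5′ to 3′ on the gene's strand.
Sycp3, chr10:88459337-88459636, plus strand: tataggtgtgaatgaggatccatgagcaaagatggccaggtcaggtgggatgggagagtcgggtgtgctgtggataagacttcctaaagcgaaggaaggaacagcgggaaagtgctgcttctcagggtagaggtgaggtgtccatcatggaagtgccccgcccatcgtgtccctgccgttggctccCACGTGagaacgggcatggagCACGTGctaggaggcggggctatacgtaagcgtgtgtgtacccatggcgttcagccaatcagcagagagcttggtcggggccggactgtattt
Cbs, chr17:31637156-31637455, minus strand: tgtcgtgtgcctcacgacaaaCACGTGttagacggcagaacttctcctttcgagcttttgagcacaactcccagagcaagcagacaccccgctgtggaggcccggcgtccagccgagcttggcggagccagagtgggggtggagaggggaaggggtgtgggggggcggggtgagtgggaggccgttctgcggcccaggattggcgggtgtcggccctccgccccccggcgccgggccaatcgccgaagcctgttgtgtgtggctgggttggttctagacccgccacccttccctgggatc
Sfrp5, chr19:42202203-42202502, minus strand: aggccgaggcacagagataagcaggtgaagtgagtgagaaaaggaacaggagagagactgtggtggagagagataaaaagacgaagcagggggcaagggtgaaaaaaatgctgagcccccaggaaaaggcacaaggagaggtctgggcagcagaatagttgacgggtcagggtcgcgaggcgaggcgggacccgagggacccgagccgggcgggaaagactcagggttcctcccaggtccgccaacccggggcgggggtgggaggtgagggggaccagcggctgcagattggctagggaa
Slc5a7, chr17:54298985-54299284, minus strand: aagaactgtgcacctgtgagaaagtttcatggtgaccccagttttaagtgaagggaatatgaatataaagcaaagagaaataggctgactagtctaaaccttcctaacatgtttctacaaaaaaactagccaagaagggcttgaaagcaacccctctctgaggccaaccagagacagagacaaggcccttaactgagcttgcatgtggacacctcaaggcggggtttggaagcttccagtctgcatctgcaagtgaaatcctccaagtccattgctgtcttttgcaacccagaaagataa
The sequences are reference sequence, and no binding was measured in these samples.

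Over all tested genes 4.85% were called higher and 1.34% lower, and the count of each list that follows is to be read beside these shares. Among genes of adipocyte lipid storage, 4 of 34 were higher and none lower, with a list median of 0.14 against 0.06 over all tested genes. Npr3, the natriuretic peptide clearance receptor that restrains lipolysis, rose from 174 ± 218 CPM (SD, n = 6) to 735 ± 169 (n = 5; difference 2.78, limma adjusted p = 0.0292, 5 of 11 fits). Gpd1, the cytosolic glycerol phosphate dehydrogenase, rose from 77.4 to 241 CPM (1.55, adjusted p = 0.0411). Aqp7, the glycerol channel, rose from 71.9 to 156 CPM (1.22, adjusted p = 0.0435), and Mgll, monoglyceride lipase, from 371 to 729 CPM (1.06, adjusted p = 0.0441). Gpd1 and Mgll were called in 2 of 11 fits and Aqp7 in 3. The sign of the list median changed with the setting: it was -0.07 with edgeR and -0.09 with DESeq2, 0.54 without the Xist libraries with 3 genes higher, and -0.43 without the epididymis libraries with 5 genes higher and 4 lower. The 4 were Slc27a1, a fatty acid transporter, Gpam, the first acyltransferase of triglyceride synthesis, Lpin1 and Dgat1, with differences of -1.33, -1.56, -1.29 and -1.41 in that fit. Pparg, the master regulator of adipocytes, was at 86.6 ± 19.9 and 70.8 ± 21.8 CPM (-0.31, adjusted p = 0.423).

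Hormones of fat cells moved in both directions. In the adipokine list 2 of 17 tested genes were higher and 1 lower, and the counts were 3 and 3 without the epididymis libraries and 4 and 2 without the Xist libraries. Besides Sfrp5, Ccdc3 rose from 14.8 to 39.7 CPM (1.36, limma adjusted p = 0.0395, 3 of 11 fits). Agt, angiotensinogen, fell from 178 ± 71.7 CPM (SD, n = 6) to 55.5 ± 35.7 (n = 5) with no overlap of the groups (-1.82, limma adjusted p = 0.0234, 7 of 11 fits). Leptin, the satiety hormone encoded by Lep, had young values of 23.7, 301 and 708 CPM at the lowest, median and highest library and old values of 1915, 1308, 594, 1788 and 1233. The groups overlapped through K18F28, and the difference of 2.98 ± 0.86 had a limma adjusted p of 0.0593, which was 0.041 without the epididymis libraries. Adipoq showed a difference of 0.18 (adjusted p = 0.794). Cfd, the complement factor adipsin, was at 6068 and 1725 CPM (-1.94, adjusted p = 0.0548), and Retn, resistin, at 780 and 180.2 CPM (-2.30, adjusted p = 0.0647). Cfd and Retn were called without the epididymis libraries, at adjusted p of 0.0306 and 0.036.

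Genes of fatty acid and sterol metabolism gave few calls, where over all tested genes 4.85% were called higher and 1.34% lower. In fatty acid and triglyceride synthesis 2 of 19 were lower, against 1 lower without the epididymis libraries and 2 higher and 3 lower without the Xist libraries. Mlxipl, the carbohydrate response factor ChREBP, fell from 39.8 to 23.3 CPM (-0.74, limma adjusted p = 0.0301) and Fads1, a fatty acid desaturase, from 91.1 to 53.4 CPM (-0.72, adjusted p = 0.0439). Fasn, fatty acid synthase, was not called (0.83, adjusted p = 0.461). In cholesterol synthesis 2 of 23 were higher (list median 0.34), against 1 higher and 1 lower without the epididymis libraries. In fatty acid oxidation 2 of 28 were higher, the mitochondrial enzymes Acaa2 (0.89, adjusted p = 0.0269) and Acadm (1.06, adjusted p = 0.0329). Without the epididymis libraries neither Acaa2 nor Acadm passed, and the median of the oxidation list went from 0.28 to -0.07. Without the Xist libraries the median was 0.50 and 6 genes were higher. The 4 genes named here were called in 4 or 5 of the 11 fits. Of the thermogenic genes, 13 were tested and none was called, against 1 higher without the epididymis libraries and 2 without the Xist libraries.

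Of 41 matrix genes 7 were called, all higher, against 4.85% called higher over all tested genes. Positive differences were seen in 38 of the 41, with a median of 0.69, against 56.1% positive and a median of 0.06 over all tested genes. The called genes included collagens of basement membrane zones and of fibril surfaces. Col12a1, a fibril-associated collagen, rose from 10.4 ± 4.90 CPM (SD, n = 6) to 30.5 ± 6.95 (n = 5) with no overlap (1.57, limma adjusted p = 0.0172, 9 of 11 fits). Col18a1, the collagen from which endostatin is cut, rose from 94.4 to 179 CPM (0.96, adjusted p = 0.0413), Col15a1 from 57.6 to 188 CPM (1.86, adjusted p = 0.0434) and Col8a1 from 7.71 to 20.5 CPM (1.28, adjusted p = 0.0419). Col5a2 and Tnc, which encodes tenascin C, had differences of 1.10 and 1.15 (adjusted p = 0.0434 and 0.0432). The major fibrillar collagens did not pass, with Col1a1 at 0.37 (adjusted p = 0.507) and Col3a1 at 0.51 (adjusted p = 0.356). Mmp12, the macrophage elastase, was at 636, 384, 33.1, 321 and 707 CPM in the old libraries against a young mean of 54.2 (2.58, adjusted p = 0.0478, 2 of 11 fits), and its low old library was K18F28. The list median was 0.47 with 6 genes higher without the epididymis libraries and 0.96 with 12 higher without the Xist libraries. With rescaled columns 1 gene was called, and 1 with covariates for sex and epididymis. The list median was 0.54 with 3 calls after centring by transcript length, and edgeR called 2 of the list's genes and DESeq2 14. The median transcript of the list is 3656 bases against 2210 over the genes tested, and the median difference over all tested genes of more than 4000 bases was 0.26. In wild-type fat the median of the same list was 0.14.

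Of 18 tested B cell and plasma cell genes 6 were higher and none lower (median 0.87), against 4.85% called higher over all tested genes. DESeq2 called 10 higher and 2 lower, and a fit with covariates for sex and epididymis called none. Without the epididymis libraries 6 were higher and 2 lower. These 2 were Irf4, a factor of lymphocytes and macrophages, and the chemokine gene Cxcl13, at -2.73 and -2.05 in that fit. Cd79a, a subunit of the B cell receptor, rose from 1.75 ± 0.462 CPM (SD, n = 6) to 6.77 ± 3.53 (n = 5; 1.40, limma adjusted p = 0.0159, 10 of 11 fits). Ms4a1, which encodes CD20, was at 0.321 ± 0.290 CPM in the young and 4.09 ± 2.98 in the old libraries, and was tested only through the old. In both genes no old library overlapped the young ones, as was so for 453 of all 840 called genes. Prdm1 and Pou2af1, factors of plasma cell and B cell differentiation, and Bank1, a B cell adaptor, had differences of 1.08, 1.14 and 1.08 (adjusted p = 0.0301, 0.0308 and 0.0403). The summed level of the list did not follow, at 201 to 845 CPM in young and 269 to 441 in old libraries. The list also holds genes of other cells, such as Xbp1, and their part in the sum was not tested. The B cell median was 0.78 without the epididymis libraries and 1.58 in wild-type ageing. H2-Ob, the class II chaperone subunit of B cells, was the single call of 15 MHC class II genes (1.14, adjusted p = 0.0245; 2 calls without the epididymis libraries), and Cd74, the invariant chain, was at -0.05 (adjusted p = 0.947).

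Of 20 T cell and NK cell genes none was called (median 0.30; 1 higher without the epididymis libraries and 2 with DESeq2). In wild-type ageing the median was 0.93. Of 30 macrophage genes only the tetraspanin gene Cd9 passed (0.73, limma adjusted p = 0.0485, 2 of 11 fits), while 3 were higher without the Xist libraries and DESeq2 called 8 higher and 2 lower. Macrophage sums ran from 3225 to 8872 CPM in old and from 1697 to 6160 in young libraries, with K18F28 again the lowest old library. Trem2, a lipid receptor of macrophages in fat, held 155, 100.4, 12.9, 97.0 and 137 CPM in the old libraries against a young mean of 27.7 ± 12.7 (SD, n = 6), a difference of 1.58 with an adjusted p of 0.104. Adgre1, which encodes F4/80, had a difference of 1.19 (adjusted p = 0.0566). Without the epididymis libraries Cd9 was not called, and the resident macrophage genes Cd163, Timd4 and Marco were lower (-1.84, -1.76 and -3.13, adjusted p = 0.0419, 0.0293 and 0.0162). In the interferon list Parp14 (0.93, adjusted p = 0.0349) and Irf1 (0.57, adjusted p = 0.0385) were higher of 38 tested. Without the epididymis libraries 2 were higher and 6 lower, and without the Xist libraries 1 was higher. Endothelial Cldn5, the tight junction protein of vessels, rose from 58.9 ± 19.2 CPM (SD, n = 6) to 164 ± 73.3 (n = 5; 1.42, adjusted p = 0.0202, 10 of 11 fits), the single call of 15 endothelial genes (2 calls without the epididymis libraries). None of 15 mesothelial genes was called, against 3 lower without the epididymis libraries and 2 lower without the Xist libraries. Of 20 fibroblast genes none was called over all libraries. Without the Xist libraries 7 were higher with a list median of 0.68, among them Fbn1, which encodes fibrillin, and Fap, and without the epididymis libraries 1 was lower with a median of -0.24.

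Targets of p53 were called 5 times of 25, all higher, against 4.85% called higher over all tested genes, and their median was 0.34. EdgeR and rescaled columns each called 3 higher, and DESeq2 5 higher and 2 lower. A fit with covariates for sex and epididymis called none. Plk2, a stress-induced kinase, rose from 14.1 ± 4.52 CPM (SD, n = 6) to 44.8 ± 16.7 (n = 5; 1.57, limma adjusted p = 0.0149, 9 of 11 fits). Ccng1, cyclin G, rose from 63.7 to 134 CPM (1.05, adjusted p = 0.0203, 8 of 11 fits) and Gadd45a, a DNA damage response gene, from 9.61 to 24.6 CPM (1.23, adjusted p = 0.0218, 7 of 11 fits). In these 3 genes the age groups did not overlap, as was so for 453 of all 840 called genes. Phlda3, an inhibitor of Akt, and Bbc3, the pro-apoptotic protein PUMA, had differences of 1.40 and 0.60 (adjusted p = 0.0433 and 0.0497). Mdm2, the ligase that degrades p53, was at 30.8 and 42.01 CPM (0.45, adjusted p = 0.13). Cdkn1a, which encodes the arrest protein p21, ran from 22.8 to 266 CPM in the young and 72.8 to 150.3 in the old (-0.32, adjusted p = 0.747). Without the Xist libraries 5 were higher and 1 lower. Without the epididymis libraries the list median was 0.05 with 4 genes higher and 2 lower, and Cdkn1a was lower by -1.21 (adjusted p = 0.0263). Cdkn2a, the locus of the senescence marker p16, was at 0.986 ± 0.629 and 2.16 ± 1.14 CPM (0.63, adjusted p = 0.211).

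Inflammatory and senescence-associated secretory genes gave 1 rise, Mmp12, and 1 fall among 35 tested. The lower gene was the chemokine Cxcl5, at 1.34 and 0.320 CPM, which was tested only through the young libraries. In this list 4 genes were lower and none higher without the epididymis libraries, and without the Xist libraries 2 were higher. In the cell cycle list 1 of 37 was higher (1 lower and none higher without the epididymis libraries), the transcription factor gene E2f1, from 3.87 to 13.2 CPM (1.52, adjusted p = 0.0434, 3 of 11 fits). Mki67, the proliferation antigen, had a difference of 1.11 (adjusted p = 0.078). Among 36 DNA repair genes Brca1 was higher (1.21, adjusted p = 0.0395), and Xrcc5, the Ku80 subunit of end joining, and Ddb2, a sensor of ultraviolet damage, were lower (-0.63 and -0.56, adjusted p = 0.0458 and 0.0497). Brca1 and Ddb2 were called in 1 of 11 fits and Xrcc5 in 3. Of the young libraries only K5F5218 exceeded 1 CPM of Brca1 (1.37 CPM), and Brca1 did not pass the filter without the epididymis libraries. In repair, 3 genes were higher and 1 lower without the epididymis libraries, and none was called without the Xist libraries.

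Genes of protein synthesis and respiration, among the best known targets of Myc, gave few calls over all 11 libraries. The summed level of the 75 cytosolic ribosomal protein genes overlapped between the ages, at 12027 to 47474 CPM in young and 11768 to 21667 in old libraries. All 75 of these genes had negative differences, between -1.33 and -0.28, with a median of -0.56. One passed: Rpl37 fell from 188 ± 81.1 CPM (SD, n = 6) to 80.6 ± 20.97 (n = 5; -1.13, limma adjusted p = 0.0413, 4 of 11 fits). Without the epididymis libraries the median was -0.92 and 10 passed, and without the Xist libraries it was -0.39 and 2 passed. DESeq2 called 21 lower and edgeR 3, and 5 were called after centring by length. Mitochondrial ribosomal proteins had a median of -0.23 (14 of 68 positive, none called) and nuclear subunits of oxidative phosphorylation -0.27 (13 of 74 positive, none called). These medians were -0.48 and -0.63 without the epididymis libraries, with 3 and 5 genes lower. Without the Xist libraries they were -0.04 and 0.02, with 32 of 68 and 38 of 74 positive and 1 respiratory gene higher. In ribosome biogenesis 12 of 50 were positive with a median of -0.24, and the one call was a rise, of the processome gene Utp20, from 13.9 to 21.4 CPM (0.59, adjusted p = 0.0308). The same list had 4 genes lower and none higher without the epididymis libraries, and DESeq2 called 1 higher and 9 lower. In wild-type fat the ribosomal and oxidative phosphorylation medians were -0.71 and -0.63.

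Transcript length moved with these lists. The median transcript of the cytosolic ribosomal genes is 714 bases and that of the oxidative phosphorylation genes 671. Over all tested genes the median difference was -0.08 for transcripts up to 1000 bases, -0.03 for 1000 to 2000, 0.10 for 2000 to 4000 and 0.26 for those over 4000. The same trend ran from -0.20 to 0.29 in wild-type ageing. After centring within length classes the ribosomal median was -0.52 and that of oxidative phosphorylation -0.23.

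The remaining lists held single genes. In the Myc network, Mycl, a paralogue of Myc, fell from 39.5 ± 26.5 CPM (SD, n = 6) to 7.12 ± 6.63 (n = 5; -2.37, limma adjusted p = 0.028, 5 of 11 fits). Mlxipl, a distant member of the network, fell as given above, and 3 of the 12 network genes were lower without the epididymis libraries. Max, the partner of Myc, was at 41.4 and 37.9 CPM (-0.13, adjusted p = 0.547) and Mnt, a Myc antagonist, at 31.9 and 34.2 CPM (0.11, adjusted p = 0.731). Of 21 clock genes 2 were lower (3 without the Xist libraries). Nr1d1, which encodes the repressor REV-ERB alpha, fell from 75.2 to 37.3 CPM (-0.98, adjusted p = 0.0329). Arntl, which encodes BMAL1, was at 0.21 (adjusted p = 0.718), and the labels used here give no time of day of collection. In insulin and IGF signalling 2 of 24 rose, against 3 higher and 1 lower without the epididymis libraries and 1 and 1 without the Xist libraries. Igfals, the acid-labile subunit of IGF complexes, went from 2.59 to 32.3 CPM (2.93, adjusted p = 0.029) and Grb14, an adaptor that inhibits the insulin receptor, from 5.40 to 21.4 CPM (1.91, adjusted p = 0.0383). Insr, the insulin receptor itself, was at -0.42 (adjusted p = 0.354). Atf3, a stress-induced factor, was the single call of 22 immediate early genes (1.78, adjusted p = 0.0429) and was not called in either omission. Cela1, an elastase of the pancreas list, rose (1.23, adjusted p = 0.0308), and Inha, the inhibin subunit in the ovary list, fell (-0.98, adjusted p = 0.0301).

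**Figure D4:**
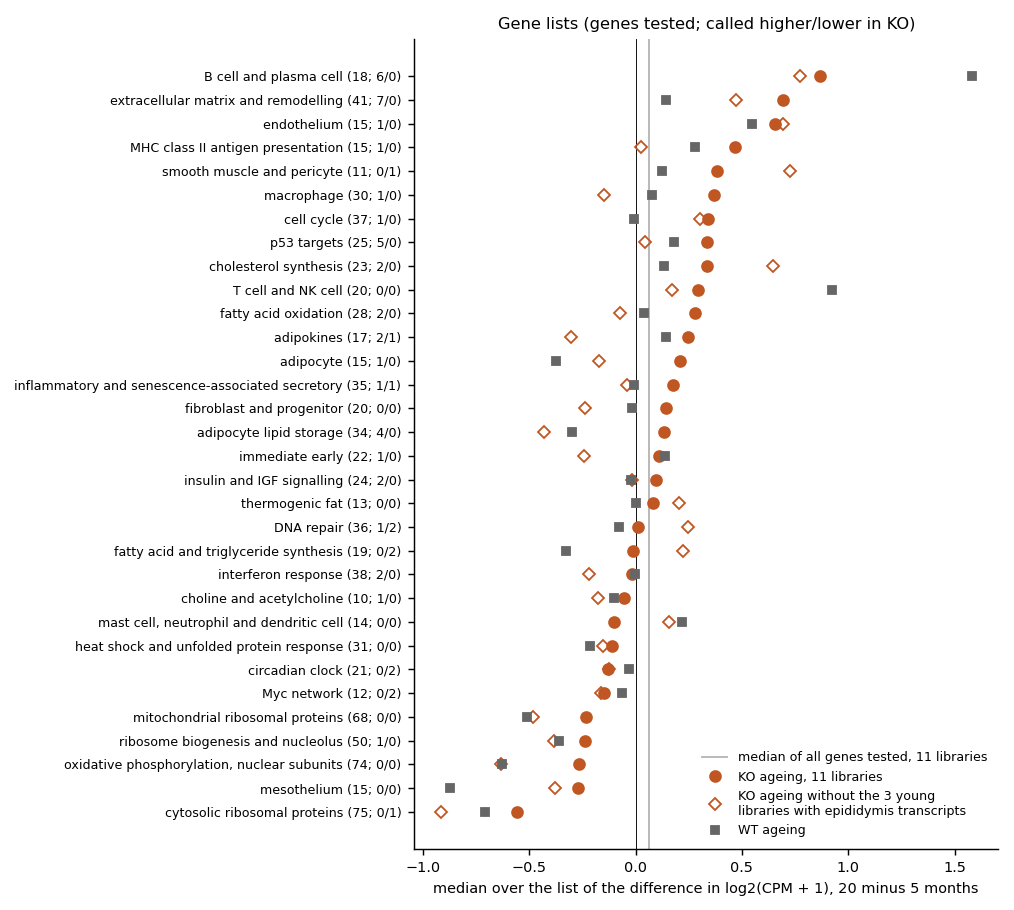
Median log2 difference between 20 and 5 months of each gene list with at least 10 tested genes. Filled circles are the 11 knockout libraries, open diamonds the knockout without the 3 young epididymis libraries, squares wild-type ageing, and labels give the number tested and called. The B cell list (0.87) and the matrix list (0.69) lie highest and the cytosolic ribosomal proteins (-0.56) lowest among the filled circles.

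Ageing of wild-type omental fat gave the reference for asking whether loss of Myc changed the ageing response. In a fit of all 22 omental libraries, 1539 of 14286 genes were called in wild-type ageing (10.8%), 1059 higher and 480 lower. Of the 840 genes called in knockout fat, 836 had the same sign in wild-type fat, against 79.3% of all tested genes, and 430 were called there with the same sign. The test of the difference between the ageing responses called 0 of 14286 genes in limma and 0 in edgeR, while 407 (2.85%) had an unadjusted p under 0.05. DESeq2 called 6 and limma with array weights 1. Young wild-type libraries also held 2 with Xist, at 432 and 287 CPM, and 1 with epididymis and testis markers, at 1120.5 CPM, while no old library of either genotype held Xist above 0.333 CPM. The count of calls for the difference was also 0 in limma without the Xist libraries and without the epididymis libraries. The number of genes with an unadjusted limma p under 0.05 depended on the libraries. It was 1634 of 14106 without the Xist libraries and 521 of 13925 without the epididymis libraries. With array weights it was 1496 of 14286, and without K5F5118 alone 1132 of 14226. On simulated counts with the same libraries this test recovered 20% of 2-fold and 80% of 4-fold changes, so small differences between the genotypes were not detectable. The changed genes were drawn from those with a mean of at least 5 CPM. No shift shared by the genes of a library, such as epididymis transcripts, was simulated. These rates therefore do not cover weaker genes or such shifts.

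All 10 of the largest knockout rises were called in wild-type fat as well, Slc5a7 with a wild-type difference of 5.25, Sfrp5 with 4.62, Dock8 with 3.17 and Sycp3 with 2.94. Of the 10 falls, 5 were called there: Apod (-2.03), Cyp2e1 (-3.27), Wnt4 (-0.70), Spon1 (-2.11) and Cbs (-1.84). The difference in response of Wnt4 was -1.53 with an unadjusted p of 4.73e-05 and a limma adjusted p of 0.676. The 4 genes of opposite sign included Cd300ld, a myeloid receptor (1.03 in knockout, -0.24 in wild type), Nr1d1 (-0.98 and 0.08) and the predicted gene LOC108168645 (1.15 and -0.30). Their adjusted p for the difference was 0.998 in limma. The smallest p for that difference, where the gene averaged 5 CPM or more in omental fat, belonged to Coasy, the last enzyme of coenzyme A synthesis (-0.19 in knockout and -0.89 in wild type, a difference in response of 0.70). Vill, a villin-like gene (1.09 and 0.08), Atic, a purine synthesis enzyme (0.47 and -0.24), and Apmap, an adipocyte membrane protein (0.16 and -0.88), were also among the 5 smallest. All 5 had a limma adjusted p of 0.998. Of them, Vill was called in knockout ageing, from 3.99 to 9.72 CPM (adjusted p = 0.00792, 11 of 11 fits), with 6.23 and 6.33 CPM in wild-type fat.

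**Figure D5:**
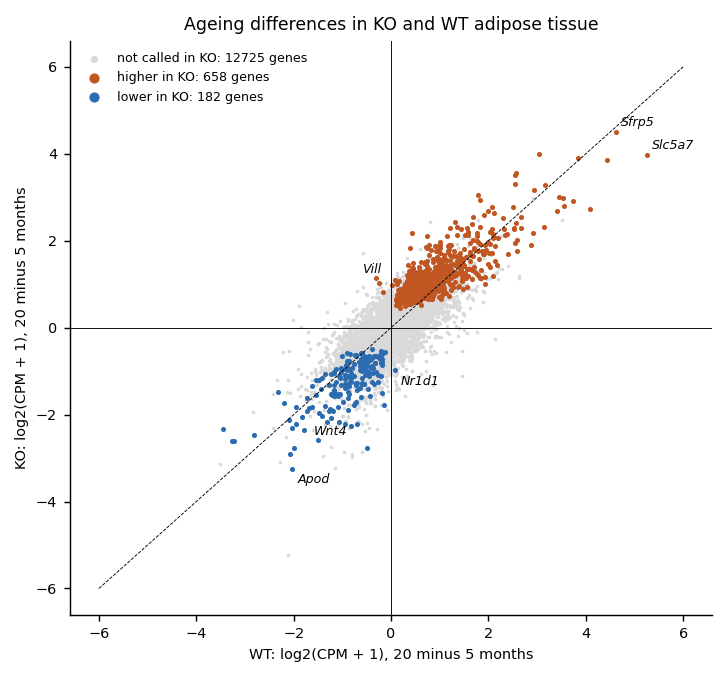
Log2 difference between 20 and 5 months in knockout omental fat against that in wild-type omental fat, with 1 point per tested gene. Orange marks genes called higher and blue those called lower in the knockout, grey those not called, and the dashed line equal differences. Of the 840 coloured points, 836 lie in the quadrants of equal sign, with Slc5a7 at 3.98 and 5.25.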

How the data were processed

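RNA was extracted with a lipid tissue kit, selected on poly-T beads and made into directional libraries, per the labels' protocols. The deposited table gives values per gene headed CPM, per the file headers, and the submitters' processing notes name GRCm38.p6 and mm10; the aligner and counter are not given in the sources used here. The deposited signal values are whole multiples of what 1 read is worth in each library (100% of values, tolerance 0.02), but the knockout fat columns sum to 529294 to 752919, so they were read as a signal scaled by the authors and the reads were recovered from it. Of 36333 entries, 996 IDs had no symbol and held 0.215% of the reads of omental fat.

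Groups were taken from the labels. Values were analysed as log2(CPM + 1), with genes above 1 CPM in at least 5 of the 11 libraries, by limma 3.58.1 (trend) in R 4.3.3 with Benjamini-Hochberg adjustment and a threshold of 0.05. Each result was also computed with edgeR 4.0.16 and DESeq2 1.42.0 on the recovered reads, other scalings, filters and pseudocounts, array weights, covariates and leaving out libraries. Omitting the 3 young epididymis libraries and centring by transcript length were chosen after seeing the data. Myc was tested by exact permutation over libraries. On simulated counts of 13565 genes with 200 changed, the knockout ageing test recovered 39% of 2-fold and 93% of 4-fold changes. In both simulations the changed genes had a mean of at least 5 CPM, and shifts shared across a library were not simulated.

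Named genes were a set by name (Myc, Pvt1, Cdkn1a, Cdkn2a, Lep, Adipoq, Ucp1, Slc5a7 and Sfrp5), the 10 largest rises and 10 largest falls among called genes without overlap and with a mean of at least 5 CPM (predicted genes left out), up to 4 called members per list with heads of pathways, and the 5 smallest interaction p. Called members of the matrix, B cell and p53 lists beyond these, the members called or lost without the epididymis libraries, Cd300ld, LOC108168645 and further uncalled markers were named after their values were seen. Members and lists were chosen with earlier results of these data known. Genes with near-identical copies may share reads. Some genes that this rule names are not reported here.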

Additional observations from a re-analysis of the deposited data

Results flagged for a closer look

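In 198 sets of 1 gene in 1 knockout group, the highest or lowest library stood apart from the nearest other by more of the group's range than Dixon's 95% limit in 17; chance gives about 1 in 20. K18F28 was the lowest old library for Lctl (gap 0.917 of the range, 29.2 CPM), Trem2 (0.809, 12.9 CPM), Mmp12 (0.740, 33.1 CPM) and E2f1 (0.732, 3.79 CPM). K5F5218 was the highest young library for Slc5a7 (0.931, 15.7 CPM), Mki67 (0.711, 8.79 CPM) and Grb14 (0.683, 16.2 CPM). Of the old libraries, K18F27 was lowest for Synpo2 (0.716, 183 CPM) and highest for the predicted gene Gm7609 (0.767, 9.95 CPM). K18F30 was lowest for Apmap (0.849, 64.95 CPM) and highest for Cxcl5 (0.733, 0.504 CPM), and K18F29 was highest for Spon1 (0.727, 17.5 CPM). Of the young libraries, K5F5118 was highest for Ucp1 (0.852, 68.8 CPM) and Acaa2 (0.714, 89.3 CPM). Aqp7 was lowest in K5F4284 (0.794, 22.4 CPM), Ccng1 in K5F5248 (0.779, 40.3 CPM) and Inha in K5F4285 (0.664, 1.13 CPM).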

How the results depend on the processing

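Against 840 calls, the count was 2033 with all 4 omental groups in the fit, 2031 with DESeq2, 3703 with array weights, 449 with columns rescaled to an equal sum, 221 without an expression filter, 239 with sex and epididymis covariates, 1362 without the Xist libraries and 119 without the libraries above 10 CPM of epididymis markers. The epididymis covariate and the limit of 10 CPM took in the old library K18F26, whose omission alone gave 78 calls. The count ran from 78 to 1791 when 1 library was left out, and the cause of these shifts was not tested. EdgeR, TMM factors, a CPM minimum of 5, a pseudocount of 0.1, a sex covariate, length centring and omission of the 3 young epididymis libraries stayed within 1.5 times, at 629, 563, 621, 805, 1260, 720 and 1177. The interaction gave 6 calls with DESeq2, 1 with array weights and 0 in each fit without 1 library. Of the 75 called genes named, edgeR called 56, DESeq2 74, the rescaled columns 47 and the covariate fit 29, none with the opposite sign.

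The difference of Myc was 0.25 to 0.56 without 1 library, 0.02 without the 3 young epididymis libraries and -0.029 without those above 10 CPM (exact permutation p = 0.886). Genes that were not called changed sign: Adipoq was at -0.052 with DESeq2, -0.034 with edgeR, -0.012 without K5F5218 (and up to 0.41 without another library), and -0.31 and -0.41 without the libraries above 10 CPM and the 3 young epididymis libraries. For the same 2 omissions Apmap was at -0.20 and -0.17 and Arntl at -0.21 and -0.23; with array weights they were at -0.071 and -0.00670, and Arntl was at -0.055 with both covariates. Cdkn1a was at 0.065 with a sex covariate and without the Xist libraries. No paired analysis was possible because the young and old animals share no replicate numbers. Genes under 1 CPM were not tested, and with 5 against 6 libraries most 2-fold changes were not detectable.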

Other observations

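A group of predicted genes was chosen after their values were seen. Gm15433 (chr1:84958587-84966167, GRCm38.p6) was at 0.574 ± 0.270 CPM (SD, n = 6) at 5 months and 9.995 ± 1.90 (n = 5) at 20 months in knockout fat. In wild-type fat it was at 0.342 and 15.0 CPM. Gm7592, also on chromosome 1, was at 0.820 and 12.3 CPM and Gm7609 at 1.34 and 7.22 CPM. Nearby, Gm2619, Gm2666 and Gm38510 were also higher, and in each of these 6 genes all 5 old libraries lay above all 6 young ones. Gm15433, Gm2619, Gm2666 and Gm38510 exceeded 1 CPM only in old libraries, so no test is given. Such genes have near-identical copies, so the reads may be split among them.

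A pair of other genes was also chosen after their values were seen, and both exceeded 1 CPM only in old libraries. Ct55, a cancer and testis antigen gene, had 2 reads in all young knockout libraries together, the 3 with epididymis and testis transcripts included, and 1.86 to 4.54 CPM in the old ones. Pramel13, of a family expressed in germ cells and embryos, was at 0.373 and 3.13 CPM. Ucp1, the uncoupling protein of brown fat, did not pass the expression filter. K5F5118 held 68.8 CPM of it, the other young libraries at most 0.872 and the old libraries 0.150 to 0.392.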
